A study of Mus musculus with 39 samples.

Results

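The embryonic β-like globin genes Hbb-y and Hbb-bh1 lie between the adult β-globin genes and the locus control region (LCR) on mouse chromosome 7, and their chromatin contacts were examined here by NG Capture-C. In this method a chosen DpnII restriction fragment, the viewpoint, is captured from a chromosome conformation capture (3C) library, and the fragments ligated to it are counted as interactions. The embryonic window was chr7:110977611-111001754 in genome build mm9 (24.1 kb), and its members were the DpnII fragments with their midpoint inside it, chosen by position alone. It held 51 fragments, of the 113229 chromosome 7 fragments and 878982 fragments of all chromosomes that had a read. In GENCODE vM1 the window contains, on the minus strand, the coding genes Hbb-y (ENSMUSG00000052187.3, chr7:111000259-111001754), Hbb-bh1 (ENSMUSG00000052217.4, chr7:110990150-110991678) and Hbb-bh2 (chr7:110987659-110988941), and the pseudogenes Hbb-bh0 and Hbb-bh3. The pseudogene Gm15115 lies on the other strand. Of the fragments, 5 overlap Hbb-y and 4 overlap Hbb-bh1. One of the 5, which holds the start of Hbb-y, has its midpoint outside the window and was counted for the gene only.

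The comparisons had 3 biological replicates in each group and used 24 of the 39 samples of the series. The first set MFL 30 h against mES, seen from the LCR elements HS1 and HS2. MFL cells were foetal liver cells of WT genotype, labelled C57Bl6, and expanded ex vivo as erythroblasts. They were depleted of Ter119-expressing cells, sorted by CD44 and size, and grown in differentiation medium for 0 h or 30 h with BrdU in the last hours of culture. The mES cells were the E14 embryonic stem cell line from strain 129/Ola, also WT, which is 1 line, so strain and cell type cannot be told apart. For the MFL libraries captured from HS1 and HS2, 1 label field has 0 h, but 30 h was used because their descriptions and the study's text have it. The second set MFL 30 h against MFL 0 h, seen from the adult β-globin genes (Hbb1/2) and from HS60, a site on the far side of the LCR. The third, from the same viewpoints at 30 h, set DKO erythroblasts against WT erythroblasts, both labelled C57Bl6. DKO cells carry a homozygous deletion of the α-globin enhancers R1 and R2 on chromosome 11. The study's text, however, has its mutant and wild-type mice on a mixed background. Whether the background differed between DKO and WT was not tested. The labels name no change at the β-globin locus in DKO or WT. No expression was measured in these libraries, so the labelled cell types could not be checked against marker genes.

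The embryonic β-globin genes lie nearer to the LCR than the adult genes, which are used later in development. Hbb-y and Hbb-bh1 encode the β-like chains of embryonic haemoglobin made by primitive erythroid cells of the yolk sac, and definitive erythroblasts of the foetal liver make the adult chains instead. All of them depend on the LCR, a group of DNase I hypersensitive sites upstream of Hbb-y, and a gene in use is known to contact it through chromatin looping.

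Hbb-y is the gene next to the LCR. The midpoint of HS1 (chr7:111007506-111007930) lies 6.71 kb from that of Hbb-y and 16.8 kb from that of Hbb-bh1, and HS2 (chr7:111009550-111009749) lies 8.64 kb and 18.7 kb from them. HS60 (chr7:111061643-111062050) is 60.8 kb from Hbb-y and 70.9 kb from Hbb-bh1. On the other side, the viewpoint labelled Hbb-b1 (chr7:110961967-110962817) is 38.6 kb from Hbb-y and 28.5 kb from Hbb-bh1, and that labelled Hbb-b2 (chr7:110975976-110976456) is 24.8 kb and 14.7 kb from them. The annotation names the adult genes the other way round: the Hbb-b1 viewpoint lies in annotated Hbb-b2 and the Hbb-b2 viewpoint in annotated Hbb-b1. The viewpoint names of the labels are kept, and genes are named as annotated.

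The promoter of Hbb-y and the HS2 fragment are shown because Hbb-y is the member nearest to the LCR and HS2 is one of the LCR viewpoints. The first is the promoter of Hbb-y, the 250 bases before its start (RefSeq, GRCm38.p6), which occurs unchanged on the minus strand of mm9 at chr7:111001722-111001971, within the DpnII fragment chr7:111001695-111002451. The second is the HS2 viewpoint fragment on the plus strand of mm9. Capitals mark, on either strand, matches to CACCC, likewise to CCAAT, to the TATA motif (TATAAA and likewise ATAAAA), to the GATA motif (AGATAA and likewise AGATAG, and with another first base TGATAA and likewise TGATAG), and to TGAGTCA. No match overlaps another.
Hbb-y promoter: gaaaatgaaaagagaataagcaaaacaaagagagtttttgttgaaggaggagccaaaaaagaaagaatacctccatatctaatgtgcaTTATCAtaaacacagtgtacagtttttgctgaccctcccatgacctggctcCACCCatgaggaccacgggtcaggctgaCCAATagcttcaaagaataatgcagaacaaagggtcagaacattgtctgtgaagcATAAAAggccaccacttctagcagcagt
HS2 viewpoint: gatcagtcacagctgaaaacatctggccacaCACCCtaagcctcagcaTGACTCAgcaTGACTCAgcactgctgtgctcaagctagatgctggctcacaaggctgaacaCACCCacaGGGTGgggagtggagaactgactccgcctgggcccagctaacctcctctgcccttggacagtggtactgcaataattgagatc

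The Hbb-y promoter held 1 match to CACCC, 1 to the GATA motif, 1 to CCAAT and 1 to the TATA motif, which 52.0%, 26.5%, 33.8% and 22.8% of the 32851 RefSeq promoters of that length hold. It held 0 matches to the DpnII site (GATC), which 41.9% of them hold. The HS2 fragment held 3 CACCC matches, which at least once occur in 30.3% of the 709322 chromosome 7 windows of 200 bases, and 2 TGAGTCA matches, against 3.14% of windows with any. It held 0 matches to the GATA motif. Neither Hbb-y nor Hbb-bh1 contains a stretch of 50 bases that recurs on chromosome 7, nor do HS1, HS2 and HS60. In the adult gene window such stretches start at 35.7% of positions, and in the Hbb-b1 and Hbb-b2 viewpoint fragments at 37.2% and 69.0%, so reads may have been split or lost there.

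Depth differed between the experiments. HS1 had 522 to 573 reporter reads per library in mES and 711 to 1822 in MFL cells, and HS2 had 3308 to 3767 and 1207 to 3873. For Hbb1/2, reads per viewpoint followed the time compared. The 0 h libraries had 10684 to 25573 of them in the first run and 3744 to 9552 in the second. Both ranges were lower for the 30 h libraries, with 3780 to 15679 in the first run and 1088 to 5258 in the second. The part of depth in the comparison of times was not tested. The DKO and WT libraries had 2264 to 15310. Values are interactions per 100000 on chromosome 7, and fragments within 1 kb of a viewpoint were left out. On that scale 3 reads, the smallest value taken as detected, were worth 280 to 748 interactions from HS1 and 157 to 713 from HS2. Such limits, and the 95% Wilson intervals below, cover counting error only.

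Seen from the LCR, the embryonic window was contacted more in erythroblasts than in mES cells. From HS1 its share of chromosome 7 interactions was 6.97%, 6.73% and 6.02% in the 3 mES libraries (31, 27 and 25 reads) and 14.8%, 15.4% and 13.4% in the 3 MFL libraries (62, 102 and 144 reads). The Wilson intervals of single HS1 libraries ran from 4.11% to 9.72% in mES and from 11.5% to 18.5% in MFL cells. HS2 gave 4.13%, 3.56% and 3.35% in mES and 6.65%, 9.26% and 6.56% in MFL cells. From both viewpoints the groups did not overlap. The average of the pair was 5.13% ± 0.43 (SD, n = 3) in mES and 11% ± 1.2 in MFL cells, a log2 difference of 1.1 with a standard error of 0.11 (p = 0.1 by an exact permutation test, two-sided, where 3 against 3 can give no smaller p). The share of reads that fell on chromosome 7 also differed, from 48.9% to 81.0% in mES and from 33.5% to 59.6% in MFL libraries. With the values as deposited, which are per 100000 reads of all chromosomes, the log2 difference was 0.67, and it was 0.59 when only interactions up to 500 kb away made up the total. The groups did not overlap in either.

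**Figure D1:**
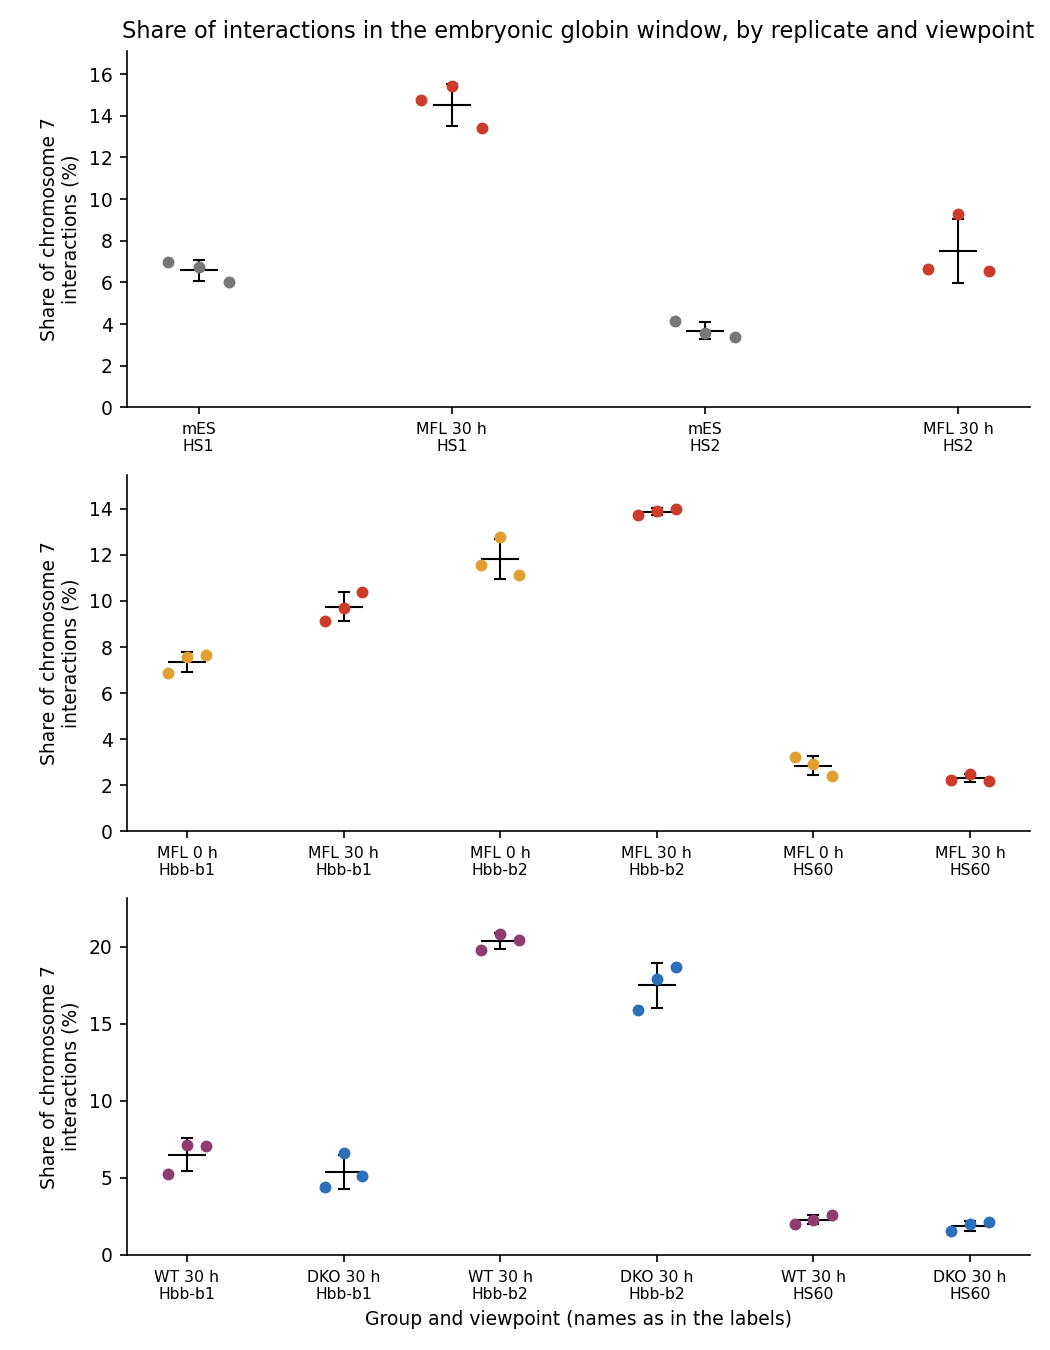
Share of chromosome 7 interactions (percent) that fell in the embryonic globin window, by group and viewpoint, for HS1 and HS2 (top), MFL 0 h and 30 h (middle) and WT and DKO (bottom). Points are biological replicates, and bars are the mean ± SD (n = 3). From HS1 the MFL libraries sit between 13.4% and 15.4% and the mES libraries between 6.02% and 6.97%. From Hbb-b1 and Hbb-b2 every 30 h replicate lies above every 0 h replicate, whereas HS60 gives overlapping values.

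The adult gene window, chr7:110961967-110976456, changed more. Its share from HS1/HS2 was 0.48%, 0.83% and 1.23% in mES, resting on 15, 16 and 25 reads, and 9.63%, 8.35% and 6.92% in MFL cells. Per kb, the embryonic window had 213 ± 17.9 interactions in mES and 457 ± 49.8 in MFL cells, and the adult window 58.3 ± 25.9 and 573 ± 93.7. The log2 ratio of embryonic to adult interactions per kb was 2.80, 1.90 and 1.2 in the mES replicates and −0.58, −0.17 and −0.20 in the MFL replicates. For this average of the pair, the embryonic window was the denser in each mES library and the less dense in each MFL library, and the means correspond to 3.91-fold and 0.80-fold. The viewpoints differed in MFL cells. From HS1 the log2 ratio was 0.09, 0.16 and 0.48 in the MFL replicates, so that the embryonic window was the denser in each, and from HS2 it was −1.45, −0.59 and −1.03. The ratio of the pair changed by −2.29 on the log2 scale with a standard error of 0.48, without overlap (exact permutation test, p = 0.1). The adult genes of 129 and C57Bl6 mice are known to differ in sequence, and the part of strain in the adult values was not tested.

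The gain of the embryonic window was close to that of a window of equal size and distance on the other side of each viewpoint. That window was chr7:111013682-111037825 for HS1 and chr7:111017545-111041688 for HS2, between these viewpoints and HS60. It may hold other sites of the LCR, so it is matched for distance but is not a neutral control. This mirrored window had 173 ± 9.19 interactions per kb in mES and 365 ± 39.9 in MFL cells, a log2 difference of 1.07 also with separate groups (p = 0.1, exact permutation test). The log2 ratio of the embryonic to the mirrored window was 0.30 ± 0.06 in mES and 0.33 ± 0.14 in MFL cells (SD, n = 3). These ratios overlap between the groups and were not tested. The adult window had a log2 difference of 3.39.

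Within the window, the difference seen from the pair was smallest at Hbb-y. Hbb-y encodes the embryonic εy chain and had 667, 647 and 641 interactions per kb in the 3 mES libraries and 943, 831 and 738 in the MFL libraries. The groups did not overlap, but the log2 difference was 0.35 (exact permutation test, p = 0.1), and it was −0.07 with the values as deposited. Hbb-bh1, which encodes the embryonic βh1 chain, had 305, 406 and 431 in mES and 687, 754 and 390 in MFL cells. These groups overlap, since MFL replicate 3 lies below mES replicates 2 and 3, and the log2 difference was 0.64 (exact permutation test, p = 0.3). From HS1 alone Hbb-bh1 had 538 ± 91.5 and 782 ± 145 without overlap (log2 difference 0.54, exact permutation test, p = 0.1), and from HS2 223 ± 53.9 and 439 ± 279 with overlap (exact permutation test, p = 0.4). For Hbb-y too the groups were apart from HS1 and not from HS2, and the difference between the viewpoints was not tested. From HS1 Hbb-y had 854 ± 138 interactions per kb in mES and 1157 ± 142 in MFL cells without overlap, and from HS2 450 ± 161 and 517 ± 99.4 with overlap (exact permutation test, p = 0.7). In mES cells Hbb-y was 3.07-fold denser than the window as a whole, and in MFL cells 1.83-fold.

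Seen from the pair, the means of the other genes of the window differed more between the cell types, from lower levels. The pseudogene Hbb-bh3 had 132 ± 32.3 interactions per kb in mES and 402 ± 150 in MFL cells, a log2 difference of 1.56, and Gm15115 had 62.8 ± 60.7 and 294 ± 40.9. Hbb-bh2 had 96.7 ± 118 and 286 ± 126, which overlap. Hbb-bh0 had 239 ± 131 and 354 ± 101, which overlap too (exact permutation test, p = 0.5). From HS1 alone Hbb-bh0 had 363 ± 190 in mES and 347 ± 176 in MFL cells. In limma over 576 chromosome 7 genes, 0 of the 6 window genes passed an adjusted p of 0.05 (Benjamini-Hochberg), against 0.521% of all genes tested. With edgeR 1 of them, Hbb-bh3, passed (adjusted p = 0.00297), a count without a share over all genes beside it. Hbb-y and Hbb-bh1 each had a limma adjusted p of 0.351, with unadjusted values of 0.0477 and 0.0658. Of the 6 genes, 3 (Hbb-y, Hbb-bh3 and Gm15115) were higher in MFL cells without overlap between the groups, which 5.56% of the tested genes were. The annotated adult genes passed, with log2 differences of 2.48 for Hbb-b1 and 3.07 for Hbb-b2 (limma adjusted p = 0.000557 and 0.000809).

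In bins of 2 kb, limma called 0 of the 12 window bins at an adjusted p of 0.05, against 0.255% of the 1960 bins tested. The tools edgeR and DESeq2 each called 2, both higher in MFL cells, and their counts over all bins stand in the last paragraph. In simulated data, with changes placed in bins drawn from all those tested, limma recovered 0% of 100 8-fold changes and edgeR 1%. Of these 100 bins only 1 had a mean of at least 10 reads. Recovery at the depth of the window bins was therefore not measured, and a lack of calls there does not show a lack of change. All 12 window bins had a positive log2 difference, with a median of 1.26 against −0.19 over all bins tested, and 6 had an unadjusted p under 0.05, against 9.54% of all. The bin over Hbb-y had the smallest difference, 0.21, with 1335 ± 117 interactions in mES and 1541 ± 109 in MFL cells. The largest difference was in the bin farthest from the LCR, chr7:110978000-110979999, which holds Gm15115. It had 109 ± 97.9 and 943 ± 295 interactions, a log2 difference of 3.53 (limma adjusted p = 0.0682, edgeR adjusted p = 0.0108, DESeq2 adjusted p = 0.0271). Across the 12 bins the difference grew with distance from Hbb-y (Spearman's rho = 0.66, across neighbouring bins of the same libraries, as a description). The profile in mES cells had its highest bins over Hbb-y and over Hbb-bh1, the latter with 790 ± 139, and the other 10 bins had 109 to 598.

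**Figure D2:**
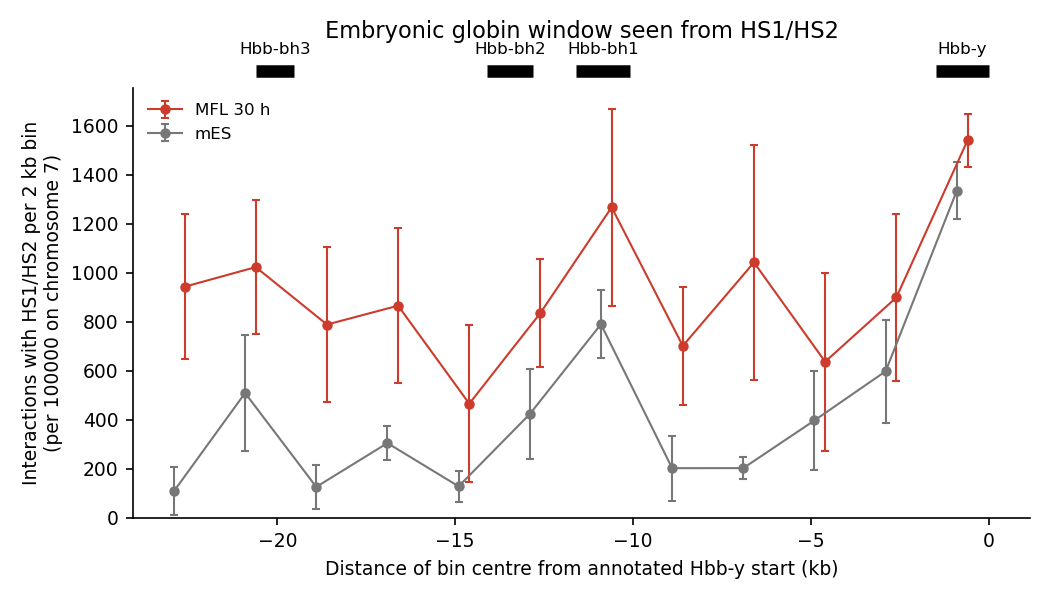
Interactions of HS1/HS2 per 2 kb bin (per 100000 on chromosome 7) against distance of the bin centre from the annotated start of Hbb-y (kb), in MFL 30 h and mES cells. Points are means, bars ± SD (n = 3), and black boxes are genes. The curves come closest over Hbb-y, at 1541 and 1335, where the groups still did not overlap. They lie far apart at the far end, at 943 and 109.

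Between 0 h and 30 h of differentiation, the adult genes contacted the embryonic window more. From Hbb1/2 the share was 9.20%, 10.2% and 9.39% at MFL 0 h and 11.4%, 11.8% and 12.2% at MFL 30 h. The groups did not overlap, with means of 9.59% ± 0.51 and 11.8% ± 0.38 and a log2 difference of 0.30 with a standard error of 0.05 (exact permutation test, p = 0.1). From the Hbb-b1 viewpoint alone the replicates had 6.86%, 7.55% and 7.64% at 0 h and 9.15%, 9.71% and 10.4% at 30 h. From Hbb-b2 alone they had 11.5%, 12.8% and 11.2% and then 13.7%, 13.9% and 14%. Both viewpoints kept the groups apart. From the same pair the adult window, without the fragments of the adult genes, rose by a similar amount. It had 657 ± 72.7 interactions per kb at 0 h and 816 ± 34.9 at 30 h, without overlap (log2 difference 0.32, exact permutation test, p = 0.1). The call on the share of the embryonic window depended on the scale. With the values as deposited the log2 difference of that share was 0.13 and the groups overlapped (exact permutation test, p = 0.6).

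Seen from HS60, the share of the same interval overlapped between the times. HS60 had 3.22%, 2.92% and 2.42% of its interactions there at 0 h and 2.2%, 2.50% and 2.18% at 30 h, which overlap (log2 difference −0.31 with a standard error of 0.14, exact permutation test, p = 0.2). The difference between viewpoints was itself tested. The log2 ratio of the share from Hbb-b1 to that from HS60 was 0.72 higher at 30 h, and that of Hbb-b2 to HS60 was 0.54 higher, each without overlap (exact permutation test, p = 0.1). Between Hbb-b1 and Hbb-b2 the change was 0.17, with overlap (p = 0.2, exact permutation test). The mirrored window of HS60 had 42.4 ± 1.25 interactions per kb at 0 h and 25.1 ± 5.32 at 30 h, without overlap (log2 difference −0.78, exact permutation test, p = 0.1). The embryonic and adult windows can also be set against each other from HS60, but the adult window was not the same as from HS1/HS2. Both adult genes lie within 1 kb of the Hbb-b1 or Hbb-b2 viewpoint, so their fragments were left out. What remained was 10.6 kb, mainly between the genes, against 14.5 kb from HS1/HS2. The log2 ratio of embryonic to adult interactions per kb was 0.50, −0.13 and −0.06 at 0 h and −0.15, 1.02 and 0.18 at 30 h, a change of 0.25 (exact permutation test, p = 0.7).

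Of the window's genes, Hbb-y had the smallest p from Hbb1/2. It had 388, 437 and 506 interactions per kb at 0 h and 858, 662 and 710 at 30 h, with no overlap. The log2 difference was 0.74 with a standard error of 0.13 (limma adjusted p = 3.78e-05 over 574 genes). That call was not stable: it was lost in 9 of 14 alternatives, among them edgeR with TMM (adjusted p = 0.078), limma without a trend (adjusted p = 0.783), the values as deposited (adjusted p = 0.334) and each of the 6 fits without 1 replicate (adjusted p from 0.0795 to 0.268). The log2 difference stayed between 0.57 and 0.84 in all 14. Hbb-y was higher from both viewpoints, by 0.94 on the log2 scale from Hbb-b1 and 0.61 from Hbb-b2, without overlap in either.

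Hbb-bh1 had 484, 386 and 429 interactions per kb at 0 h and 484, 503 and 647 at 30 h. Its groups touch, and the log2 difference was 0.32 (limma adjusted p = 0.547). From Hbb-b2 alone, the nearer viewpoint, it had 471 ± 25.5 and 648 ± 72.7 without overlap, and from Hbb-b1 395 ± 73.3 and 441 ± 113 with overlap. The log2 ratio of Hbb-y to Hbb-bh1 per kb was 0.03 ± 0.31 at 0 h and 0.45 ± 0.35 at 30 h. It changed by 0.42 with a standard error of 0.27 (exact permutation test, p = 0.3), so a different gain at Hbb-y than at Hbb-bh1 was not shown.

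**Figure D3:**
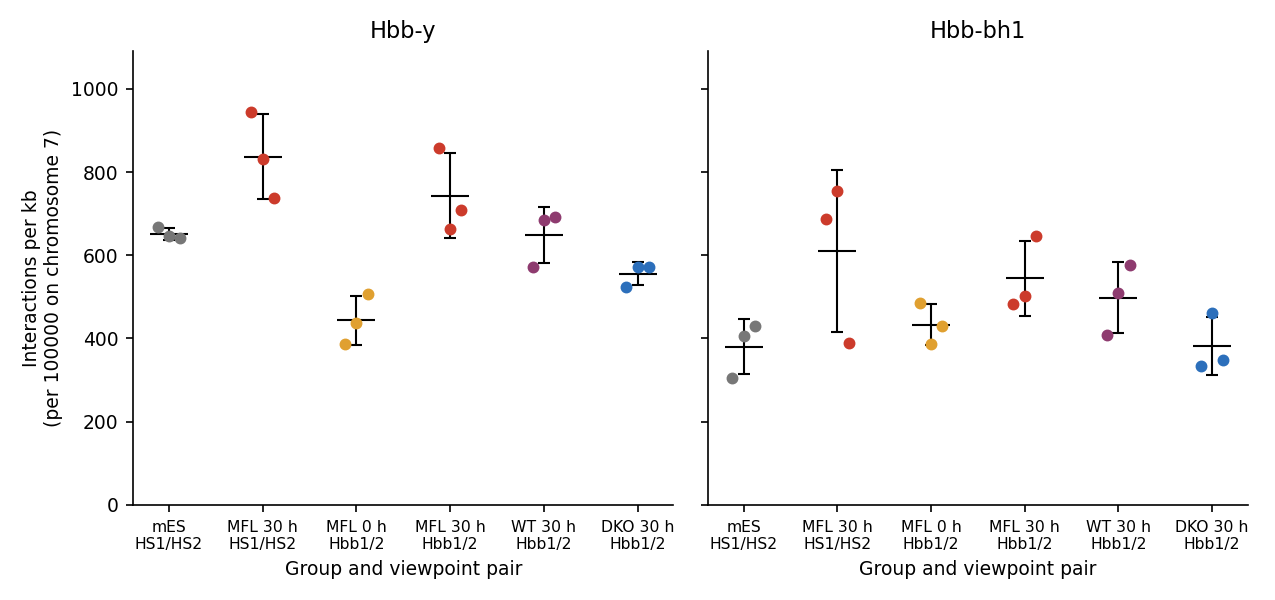
Interactions per kb (per 100000 on chromosome 7) over the fragments of Hbb-y (left) and Hbb-bh1 (right), by group and viewpoint pair. Points are biological replicates, and bars are the mean ± SD (n = 3). Hbb-y from Hbb1/2 lies between 388 and 506 at 0 h and between 662 and 858 at 30 h, while the Hbb-bh1 values meet at 484.

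Of the 6 window genes, 2 (Hbb-y and Hbb-bh3) passed limma as higher at 30 h from Hbb1/2 and 0 as lower, against 0.348% and 0.523% of all genes tested. Hbb-bh3 rose from 440 ± 41.1 to 638 ± 47.1 interactions per kb (limma adjusted p = 0.0159, edgeR adjusted p = 0.372). Without overlap between the groups, 3 of the 6 (those and Hbb-bh2, 242 ± 43.7 to 411 ± 79.5) were higher, as were 3.48% of the genes tested. Gm15115 had 489 ± 43.4 and 468 ± 74.5. From HS60, 0 of the 6 passed limma, against 0.36% of 556 genes, 0 had an unadjusted p under 0.05, and edgeR called 0 of them. Without overlap, 1 of the 6 was higher at 30 h, against 6.12% of the genes tested: Hbb-bh0, with 23.0, 1.35 and 32.2 interactions per kb at 0 h and 43.4, 82.7 and 52.7 at 30 h. Its fragments held 1 to 25 reads per replicate over both runs. Hbb-y had 146 ± 42.0 and 132 ± 15.9 interactions per kb from HS60 and Hbb-bh1 141 ± 36.3 and 112 ± 36.3, all overlapping.

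In bins of 2 kb from Hbb1/2, limma, edgeR and DESeq2 each called 0 of the 12 window bins, against 0.482% of the 1246 called by limma. Of the 12, 11 had a positive log2 difference, with a median of 0.30 against 0.21 over all bins, and 3 had an unadjusted p under 0.05, against 4.65% of all. The smallest p among the higher bins was at chr7:110980000-110981999, which overlaps the 3′ part of Hbb-bh3. It had 1458 ± 62.4 interactions at 0 h and 1978 ± 230 at 30 h (limma adjusted p = 0.101). The only lower bin, chr7:110994000-110995999 between Hbb-bh1 and Hbb-y, had 780 ± 159 and 655 ± 67.2 (limma adjusted p = 0.802).

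The mirrored window of Hbb-b1 and that of Hbb-b2 moved differently. From Hbb-b1 it had 135 ± 15.2 interactions per kb at 0 h and 94.0 ± 25.3 at 30 h, with overlap, while the embryonic window had 305 ± 17.6 and 405 ± 25.8. From Hbb-b2 it had 451 ± 33.8 and 548 ± 29.1 without overlap, and the embryonic window 491 ± 35.5 and 577 ± 5.92. The mirrored window of Hbb-b2 spans the other adult gene by position. The fragments of that gene were left out, as they lie within 1 kb of the Hbb-b1 viewpoint.

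In DKO erythroblasts the embryonic window was contacted somewhat less by the adult genes than in WT. From Hbb1/2 the share was 12.5%, 14% and 13.8% in WT and 10.2%, 12.3% and 11.9% in DKO. The groups did not overlap, with means of 13.4% ± 0.77 and 11.4% ± 1.13 and a log2 difference of −0.23 with a standard error of 0.10 (exact permutation test, p = 0.1). The Hbb-b2 viewpoint alone had 19.8%, 20.8% and 20.4% in WT and 15.9%, 17.9% and 18.7% in DKO, again apart. From Hbb-b1 the values were 5.26%, 7.11% and 7.10% and then 4.44%, 6.63% and 5.10%, which overlap. HS60 had 2.01%, 2.24% and 2.58% in WT and 1.53%, 2.03% and 2.12% in DKO, which overlap too (log2 difference −0.27, exact permutation test, p = 0.3). With the values as deposited, the Hbb1/2 log2 difference was −0.35 and the groups overlapped, as they did at −0.36 when fragments within 5 kb of a viewpoint were left out.

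Windows beside it gave mixed values. The mirrored window of the pair had 292 ± 20.4 interactions per kb in WT and 243 ± 14.8 in DKO, a log2 difference of −0.27 without overlap (exact permutation test, p = 0.1). Only that of Hbb-b2, counted without the fragments of the other adult gene, was apart (448 ± 33.6 and 355 ± 31.4). That of Hbb-b1 overlapped (136 ± 11.2 and 131 ± 8.09). The adult window, without the fragments of the adult genes, had 899 ± 123 and 724 ± 221 from the pair, with overlap. From Hbb-b2 alone it had 621 ± 56.5 in WT and 481 ± 45.5 in DKO without overlap (log2 difference −0.37, exact permutation test, p = 0.1). From Hbb-b1 alone it had 1178 ± 199 and 968 ± 400 with overlap. The log2 change of the share differed between viewpoints by 0.05 (Hbb-b2 against HS60), −0.0038 (Hbb-b1 against HS60) and −0.053 (Hbb-b1 against Hbb-b2), with overlapping groups in all 3 pairs (exact permutation test, p from 0.9 to 1). DKO libraries also had fewer reads than WT libraries, 2264 to 12998 against 4884 to 15310 from Hbb1/2, and the part of depth was not tested.

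Neither embryonic gene alone separated DKO from WT. Hbb-y had 572, 684 and 692 interactions per kb in WT and 524, 571 and 573 in DKO, where the highest DKO replicate lies just above the lowest of WT (log2 difference −0.22, limma adjusted p = 0.957). Hbb-bh1 had 408, 510 and 577 in WT and 335, 462 and 348 in DKO (log2 difference −0.39, limma adjusted p = 0.900). From Hbb-b2 alone Hbb-bh1 had 734 ± 129 and 517 ± 66.4, without overlap (exact permutation test, p = 0.1). Hbb-bh3, with 686 ± 57.3 in WT and 519 ± 45.7 in DKO, was the 1 gene of the 6 that was lower without overlap, against 4.17% of 552 genes, and 0 were higher. By limma, 0 of the 6 passed against 0.181% of genes tested, and edgeR called 0. An unadjusted limma p under 0.05 was reached by 2, a count without a share over all genes beside it. These 2 differed in opposite directions: Hbb-bh3 had a log2 difference of −0.40 and Gm15115 one of 0.41, with 731 ± 163 in WT and 961 ± 121 in DKO, which overlap. From HS60, limma and edgeR called 0 of the 6, and 0 had an unadjusted p under 0.05, against 0 of all 553 genes called by limma.

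**Figure D4:**
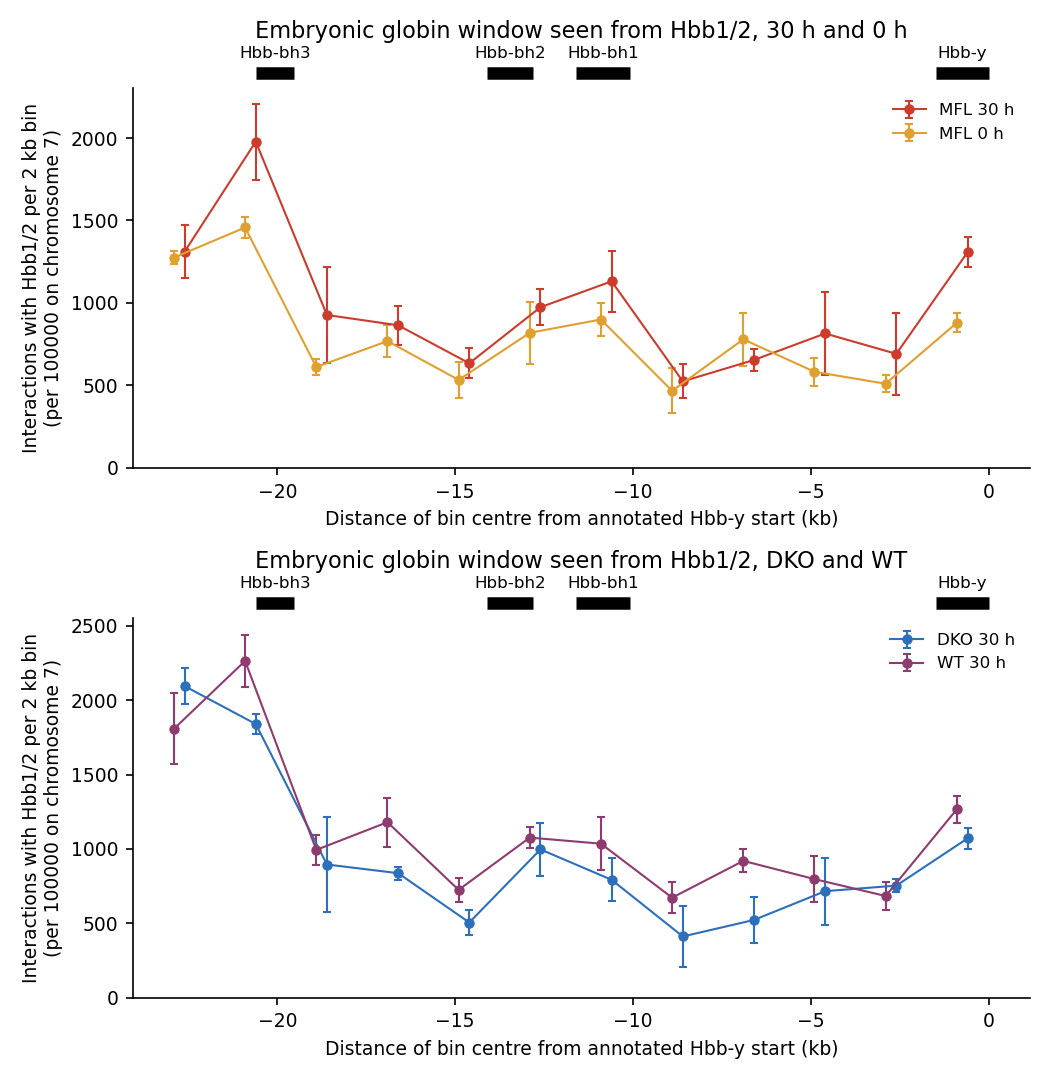
Interactions of Hbb1/2 per 2 kb bin (per 100000 on chromosome 7) against distance of the bin centre from the annotated start of Hbb-y (kb), at MFL 0 h and 30 h (top) and in WT and DKO (bottom). Points are means, bars ± SD (n = 3), and black boxes are genes. The bin with its centre just left of the Hbb-bh3 box, which overlaps that gene, has the highest value at 30 h (1978) and 0 h (1458). The widest gap between DKO and WT relative to the height of the bin is at chr7:110994000-110995999 (523 and 920).

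Of the 12 window bins seen from Hbb1/2, limma called 0 between DKO and WT, against 0.125% of 801 bins. For edgeR, which called 1, and DESeq2, which called 0, the counts over all bins stand in the last paragraph. Of the 12, 10 were lower in DKO, with a median log2 difference of −0.27 against 0.12 over all bins, and 5 had an unadjusted p under 0.05, against 5.87% of all. The smallest p was at chr7:110994000-110995999, with 920 ± 76.5 interactions in WT and 523 ± 152 in DKO, a log2 difference of −0.86 with a standard error of 0.23 (limma adjusted p = 0.195, edgeR adjusted p = 0.0298, DESeq2 adjusted p = 0.998). It is the bin that was also lower at 30 h than at 0 h. The higher bin with the smallest p, chr7:110978000-110979999, had 1807 ± 238 in WT and 2094 ± 123 in DKO (limma adjusted p = 0.888).

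The fragments that hold the gene starts gave few reads but can be set beside the gene values. The fragment with the Hbb-y start, chr7:111001695-111002451, had from HS1/HS2 400, 273 and 548 interactions per kb in mES and 943, 796 and 524 in MFL cells, which overlap (exact permutation test, p = 0.2). From Hbb1/2 it had 211, 283 and 451 at 0 h and 997, 573 and 680 at 30 h, a log2 difference of 1.28 without overlap (exact permutation test, p = 0.1). In WT it had 367, 524 and 580, and in DKO 235, 578 and 497, which overlap.

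The fragment with the Hbb-bh1 start, chr7:110991653-110992180, had 0, 0 and 101 interactions per kb from HS1/HS2 in mES, resting on 2 reads in all, and 676, 708 and 339 in MFL cells on 12 reads. At this depth the mES value is a count near 0, and a fold was not computed. From Hbb1/2 it had 213, 253 and 292 at 0 h and 559, 218 and 706 at 30 h, with replicate 2 at 30 h among the 0 h values (exact permutation test, p = 0.3). In WT it had 352, 611 and 552, and in DKO 62.5, 392 and 335, which overlap (log2 difference −1.29, exact permutation test, p = 0.2).

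As a description, chromosome 7 genes were ranked by how alike their interactions per kb were to those of each member across libraries of 1 viewpoint pair. Over the 12 Hbb1/2 libraries and 551 genes, Hbb-y was most like Hbb-bh3 (r = 0.81), Cdr2 (r = 0.79) and Olfr66 (r = 0.74), and Hbb-bh1 was most like Eif3c (r = 0.68), Otoa (r = 0.63) and Hbb-bh3 (r = 0.61). Over the 6 HS1/HS2 libraries and 575 genes, Hbb-y was most like Uros (r = 0.99), Capn5 (r = 0.98) and Gm16703 (r = 0.97), and Hbb-bh1 was most like Trpc2 (r = 0.96), Mef2a (r = 0.94) and 6330503K22Rik (r = 0.92). These points share their libraries, depth and scaling, and most of the genes named had few reads. Hbb-bh3, at the far end of the window, was the gene that both lists for Hbb1/2 held.

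Levels from Hbb1/2 in separate experiments can only be set side by side. The WT 30 h libraries had 19.8% to 20.8% of Hbb-b2 interactions in the window and the MFL 30 h libraries 13.7% to 14%, although both are labelled C57Bl6 WT erythroblasts at 30 h. From Hbb-b1 the order was the reverse, 5.26% to 7.11% and 9.15% to 10.4%. The experiments were captured with different sets of viewpoints, and no comparison was made across them.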

How the data were processed

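Per the labels, DpnII 3C libraries were captured with oligonucleotides in a double capture and sequenced, and the submitters' processing notes name Trim Galore, Bowtie and mm9. Versions are not given in the sources used here. RPM is the usual unit closest to the values the authors deposited, which however sum to 100000 for the reporter reads of each viewpoint. Whole reads were recovered from them (largest deviation 2.97e-05 of a read, tolerance 0.01).

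The members, windows and gene lists were chosen with earlier results of these data known. Fragments within 1 kb of any captured viewpoint were dropped. What remained of a viewpoint on chromosome 7 was set to 100000 interactions. In the 0 h and 30 h libraries, counts per fragment differed between the sequencing runs by no more than sampling noise (chi-square per degree of freedom 0.332 to 0.800). That comparison covered only 4 to 204 fragments per replicate and viewpoint. The share of reads on chromosome 7 could differ more between the runs. For HS60 at 0 h, replicate 1, it was 54.0% of 34218 reads and 64.2% of 4110. For Hbb-b1 at 30 h, replicate 1, it was 49.9% and 49.3%. The mean over both runs was used, and likewise the mean over a viewpoint pair. A gene's value is the sum over fragments overlapping it, per kb of those fragments. All 113229 chromosome 7 fragments matched an mm9 DpnII digest. Single values had a two-sided exact permutation test on log2 values over 20 arrangements, so that a call means groups that do not overlap. Bins of 2 kb and annotated genes whose mean reached 10 were tested by limma 3.58.1 (trend, log2 after adding 1, Benjamini-Hochberg), and edgeR 4.0.16 and DESeq2 1.42.0 on whole reads were alternatives. For these the reads of both runs were added, which are not independent. The fit over genes, the HS60 columns of the DKO and WT files, which the labels do not list, edgeR with chromosome totals and the TGAGTCA search were added after the data were seen.

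Named were Hbb-y, Hbb-bh1, their fragments, other genes of the locus, the window bin with the smallest p in each direction, and the 3 most alike genes. The Hbb-y bin, the bin over Hbb-bh1 and the adult genes were also named by position. Of 5 symbols looked for, 4 had a RefSeq promoter. That of Hbb-bh1 is not shown. Scripts were tested on simulated reads with known changes. From HS1/HS2, limma over bins recovered 0% of 2-fold and 0% of 8-fold changes. From Hbb1/2 between 30 h and 0 h it recovered 7% and 79%, with 14 false calls. Between DKO and WT it recovered 0% and 27.5%. The changed bins were drawn from all those tested, most of them with few reads. Among changed bins with a mean of at least 10 reads, limma recovered 42.9% of 7 2-fold and 91.7% of 12 8-fold changes between 30 h and 0 h. Between DKO and WT it recovered 0% of 6 and 85.7% of 7 at that depth. A bin that was not called is therefore not shown to be unchanged. The exact permutation p-values rest on the values of the libraries compared. In limma, edgeR and DESeq2 the spread between libraries is estimated with help from all bins or genes tested. Replicate numbers were not taken to pair samples.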

Additional observations from a re-analysis of the deposited data

How the results depend on the processing

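Over 130 alternatives for the 11 window shares and ratios, 110 kept direction and call, 4 lost the call, 13 gained one and 3 reversed. Over 140 alternatives for the 2 genes, 128 kept both, 9 lost the call and 3 reversed. The causes were not tested, except that leaving out a replicate also leaves fewer samples. The share from HS1/HS2 (log2 difference 0.59 to 1.18) and its embryonic-to-adult ratio (−2.67 to −1.87) kept direction and call in every alternative run.

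With values as deposited, the share lost its call at 0.13 between 30 h and 0 h and at −0.35 between DKO and WT from Hbb1/2, and gained one at −0.37 between 30 h and 0 h from HS60. Hbb-y from HS1/HS2 then reversed to −0.066. With 5 kb around viewpoints left out, the Hbb1/2 share between DKO and WT lost its call at −0.36, as it did from Hbb-b1 alone at −0.27. From Hbb-b1 alone, the Hbb-y to Hbb-bh1 ratio gained a call at 0.79 between 30 h and 0 h and reversed to −0.13 between DKO and WT. With gene spans extended by 1 kb, that ratio from HS1/HS2 gained a call at −0.57. In the first run only, the HS60 share gained one at −0.29. Hbb-y from HS60 between 30 h and 0 h reversed to 0.078 with edgeR on chromosome totals.

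Replicate numbers were shared but same-numbered samples correlated between −0.094 and 0.092, so the numbers were not taken as pairs, and at most 1 of 3 samples correlated best with its own number. With the replicate number as a block, the HS60 share gained a call at −0.31 between 30 h and 0 h and at −0.27 between DKO and WT, the bins called rose from 5 to 28, from 6 to 10 and from 1 to 6 in the 3 comparisons, and no other call on a share, ratio or gene changed. A sign-flip test over 3 pairs cannot give a p below 0.25.

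Leaving out each replicate in turn, the Hbb-y to Hbb-bh1 ratio ranged from −0.49 to −0.10 from HS1/HS2, from 0.23 to 0.58 between 30 h and 0 h and from 0.083 to 0.29 between DKO and WT. It gained a call without MFL replicate 3, without 30 h replicate 3 and without DKO replicate 2. The HS60 share ranged from −0.42 to −0.21 between 30 h and 0 h, with a call without 30 h replicate 2 or 0 h replicate 3, and from −0.36 to −0.12 between DKO and WT, with a call without WT replicate 1. The HS60 embryonic-to-adult ratio ranged from −0.089 (without 30 h replicate 2) to 0.49, and from −0.045 (without DKO replicate 1) to 0.25 (without DKO replicate 3, with a call). Hbb-y from HS60 reversed to 0.11 without 0 h replicate 3.

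Bins called over chromosome 7 varied most. From HS1/HS2 the 5 became 20 with a pseudocount of 10, 41 with a mean of at least 5, 20 without a filter, 0 without a trend, 25 as deposited, 13 with edgeR and TMM, 23 with edgeR on chromosome totals and 9 with DESeq2. They ranged from 0 (without MFL replicate 1 or 2) to 241 without 1 replicate, with 239 to 241 without any 1 mES replicate and 39 without MFL replicate 3. From Hbb1/2 between 30 h and 0 h the 6 became 11 without a filter, 0 without a trend, 1 as deposited, 1 with edgeR and TMM, 1 with edgeR on the first run, 0 with DESeq2, and 0 to 7 without 1 replicate (0 without 30 h replicate 3, 2 without 30 h replicate 1, 3 without 0 h replicate 1). Between DKO and WT the 1 became 7 with a pseudocount of 10, 5 with a mean of at least 5, 0 without a trend, 0 as deposited, 5 with edgeR and TMM, 2 with edgeR on chromosome totals, 0 with DESeq2, and 0 to 4 without 1 replicate (0 without DKO replicate 2 or 3, 2 without DKO replicate 1, 4 without WT replicate 1). Without a filter this comparison could not be fitted, and the HS60 ratio between DKO and WT had no value with 5 kb left out, since 1 library then had 0 adult reads.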
